A study of Mus musculus with 4 samples.

Results

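Fatty acid uptake and lipoprotein handling genes were examined as a set of 10 named genes, Cd36, Lpl, Gpihbp1, Fabp4, Slc27a1, Slc27a4, Acsl1, Vldlr, Angptl4 and Lrp1, matched by exact symbol. All 10 were found among the 17335 rows of the deposited expression table. RNA-Seq was run on gonadal white adipose tissue (gWAT) of female mice after 18 weeks on a high-fat diet (HFD). The control group was fl/fl, littermates with a floxed Dnmt1 gene, and AD1KO mice carried the same floxed gene together with an adiponectin-Cre transgene, which removes Dnmt1 in adipocytes, so the groups also differ in the presence of Cre. The age of the mice is not given in the sources used here. Macrophages, endothelial cells and stromal cells of the fat pad keep Dnmt1, so the tissue is a mixture of deleted and intact cells. RNA of 4 animals was pooled in equal amounts for each genotype, which gave 1 library per group and no measure of the spread between animals. The reduced representation bisulfite libraries of the same series were not analysed here.

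White adipocytes take most of their fatty acids from triglyceride-rich lipoproteins in the blood. Lipoprotein lipase (LPL) is secreted by adipocytes, carried across the capillary wall and held there by GPIHBP1, and it hydrolyses the triglycerides of chylomicrons and very-low-density lipoproteins, while ANGPTL4 inactivates it. The released fatty acids enter through CD36 and fatty acid transport proteins, are bound in the cytosol by FABP4 and are activated to acyl-CoA by ACSL1. VLDLR and LRP1 are structurally related endocytic receptors that bind apolipoprotein E. Many of these genes are known targets of the nuclear receptor PPARG.

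Levels are given as FPKM, fragments scaled for transcript length and sequencing depth, which can be compared between genes. The difference between libraries is given as the log2 ratio of FPKM plus 0.01, AD1KO over fl/fl, with a 95% counting interval. The interval comes from reads estimated from FPKM, transcript length and a fitted depth, in reads, of 17740000 for fl/fl and 17480000 for AD1KO. It covers counting error only, so each ratio compares 2 libraries and carries no test of the genotype. A ratio of 0.5 or more is called higher and one of -0.5 or less lower, at the threshold of the study's methods. Dnmt1, the targeted gene, was at 6.99 FPKM in fl/fl and 3.33 FPKM in AD1KO, a log2 ratio of -1.07 (interval -1.27 to -0.87). In whole tissue, loss in adipocytes and a smaller share of other cells cannot be told apart by this value.

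Across the 10 genes, 9 had more FPKM in AD1KO than in fl/fl, and only Lrp1 had less. For the same 9 genes the whole counting interval lay above 0, and for Lrp1 it lay below 0. Among the 15839 genes with at least 0.1 FPKM in 1 library, 45.3% had a ratio above 0, 21.7% a whole interval above 0 and 29.0% a whole interval below 0. Slc27a1, Vldlr and Fabp4 were called higher, and 0 of the 10 were called lower. In all tested genes 14.3% were called higher and 19.1% lower, so that 57.2% of the calls were lower. Upper quartile scaling turned this balance, with 48.3% of the calls lower and a median of all tested genes of 0.05 in place of -0.04. The median ratio of the 10 genes was 0.39, against -0.04 for all tested genes on the deposited scale. All 10 genes had at least 10 FPKM in 1 library. Of the 6161 genes at that level, 44.8% had a ratio above 0 and 8.54% were called higher.

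**Figure D1:**
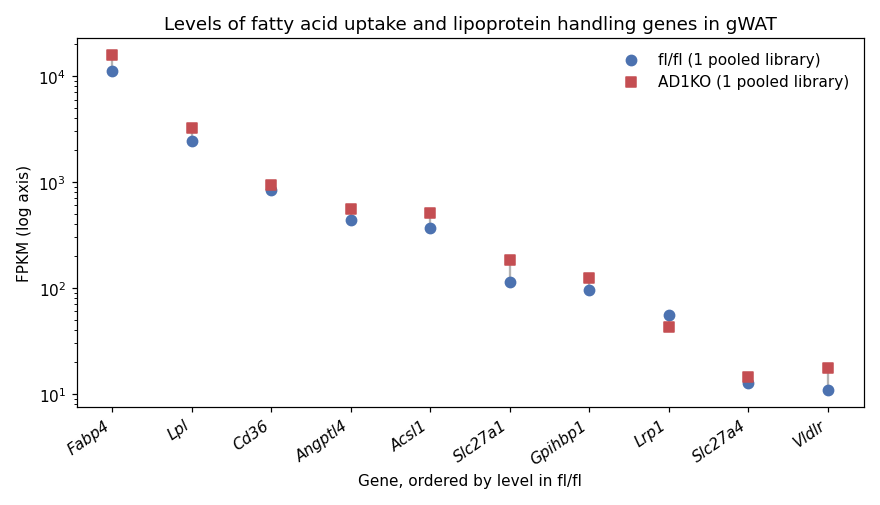
FPKM of the 10 genes on a log axis in the fl/fl (circles) and AD1KO (squares) libraries, 1 pooled library per group, ordered by the level in fl/fl. The genes run from Fabp4, at 11151 FPKM in fl/fl, to Vldlr, at 10.9 FPKM, and the square lies above the circle for each gene but Lrp1.

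The lipase and the proteins that hold and inhibit it differed by similar amounts. Lpl (gene 16956, mm9 chr8:71404390-71431347, plus strand) had 2436 FPKM in fl/fl and 3195 FPKM in AD1KO, 1.31-fold higher (log2 ratio 0.39, interval 0.38 to 0.40). Gpihbp1 (gene 68453, mm9 chr15:75427088-75428642, plus strand), which anchors the lipase on capillary endothelium, had 95.4 and 124.6 FPKM, a ratio of 0.38 (interval 0.28 to 0.50). Angptl4 (gene 57875, mm9 chr17:33910695-33918520, minus strand), the secreted inhibitor, had 434.7 and 553.0 FPKM, a ratio of 0.35 (interval 0.32 to 0.38). Each of the 3 genes was higher in AD1KO than in fl/fl but short of the threshold. Their proportions therefore differed little between the libraries. The level of Lpl was 25.5 times that of Gpihbp1 in fl/fl and 25.6 times in AD1KO. The level of Angptl4 was 0.178 of that of Lpl in fl/fl and 0.173 in AD1KO.

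Among the carriers that bring fatty acids into the cell, Slc27a1 stood apart from Slc27a4 and Cd36. Slc27a1 (gene 26457, mm9 chr8:74092826-74110607, plus strand), which encodes the insulin-responsive transport protein FATP1, had 113.7 FPKM in fl/fl and 183.5 FPKM in AD1KO. It was 1.61-fold higher (log2 ratio 0.69, interval 0.65 to 0.74), and 9.73% of all tested genes had a larger ratio. Slc27a4 (gene 26569, mm9 chr2:29658154-29673042, plus strand), the related transporter FATP4, had 12.6 and 14.4 FPKM, a ratio of 0.19 (interval 0.06 to 0.33). The intervals of these related genes did not overlap, and the level of Slc27a1 was 9.04 times that of Slc27a4 in fl/fl and 12.8 times in AD1KO. Cd36 (gene 12491, mm9 chr5:17287508-17394777, minus strand), a scavenger receptor and fatty acid translocase, had 838.2 and 926.1 FPKM, the smallest positive ratio of the set at 0.14 (interval 0.13 to 0.16). A ratio larger than that of Cd36 was found in 33.2% of all tested genes.

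Inside the cell, the fatty acid binding protein and the acyl-CoA synthetase both had more FPKM in AD1KO. Fabp4 (gene 11770, mm9 chr3:10204347-10208576, minus strand) was the most abundant gene of the table in both libraries, at 11151 FPKM in fl/fl and 15920 FPKM in AD1KO. Its ratio of 0.51 (interval 0.51 to 0.53) lay just inside the threshold. Acsl1 (gene 14081, mm9 chr8:47556395-47621405, plus strand), the main long-chain acyl-CoA synthetase of adipocytes, had 369.6 and 507.8 FPKM. Its ratio of 0.46 (interval 0.43 to 0.48) lay just outside. Scaling by the trimmed mean of M-values, the median of ratios or the upper quartile put Acsl1 past the threshold as well, at 0.50, 0.50 and 0.55. Fabp4 alone took 1.93% of summed FPKM in fl/fl and 2.92% in AD1KO. The 10 genes together took 2.69% in fl/fl and 3.94% in AD1KO, and the other 9 without Fabp4 took 0.757% and 1.02%.

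The lipoprotein receptors went opposite ways. Vldlr (gene 22359, mm9 chr19:27290974-27328721, plus strand) had 10.9 FPKM in fl/fl and 17.6 FPKM in AD1KO, 1.61-fold higher (log2 ratio 0.69, interval 0.60 to 0.78). Lrp1 (gene 16971, mm9 chr10:126975217-127058204, minus strand) had 55.9 and 42.7 FPKM, a ratio of -0.39 (interval -0.43 to -0.35) that was short of the threshold. The level of Vldlr was thus 0.195 of that of Lrp1 in fl/fl and 0.412 in AD1KO. Vldlr was the least abundant of the 10 genes in fl/fl and passed Slc27a4 in AD1KO. The order of the other 8 genes by FPKM was the same in both libraries. None of the 10 genes shared exon bases with another gene in the GENCODE annotation of mm9.

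By the size of the ratio, Slc27a1 and Vldlr came first and could not be told apart by their intervals. The interval of Fabp4 overlapped no other. That of Gpihbp1, from 1182 reads in fl/fl and 1522 in AD1KO, held the ratios of Acsl1, Lpl and Angptl4. Slc27a4, with 867 and 977 reads, had an interval that reached from that of Cd36 to that of Angptl4, and that of Lrp1 lay below all others.

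**Figure D2:**
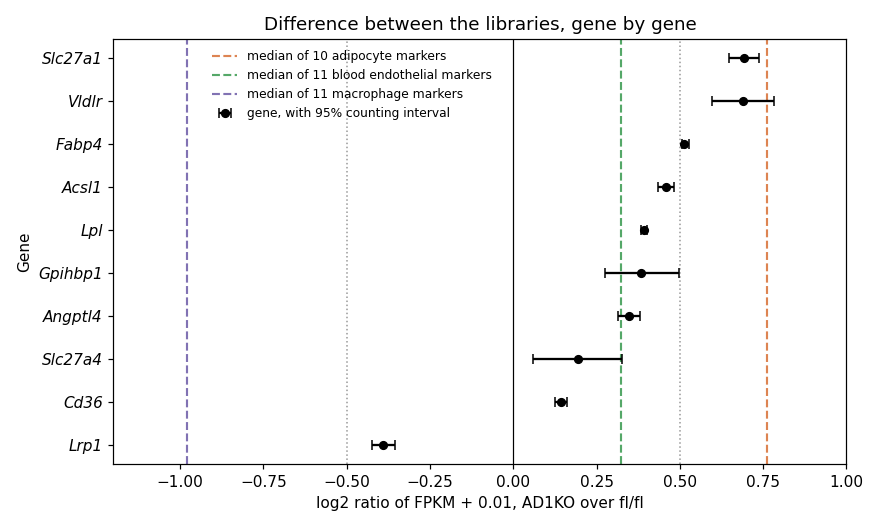
Log2 ratio of FPKM plus 0.01, AD1KO over fl/fl, for each of the 10 genes, with 95% counting intervals. Dashed lines mark the medians of 10 adipocyte (0.76), 11 blood endothelial (0.32) and 11 macrophage markers (-0.98), and dotted lines the threshold of 0.5 in either direction. Every gene lies between the macrophage and the adipocyte line.

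Markers of the cell types in the pad differed between the libraries at the same time. In bulk tissue, fewer cells of a type and less RNA per cell cannot be told apart. All 10 adipocyte markers, among them Adipoq, which encodes adiponectin, and Plin1, which coats lipid droplets, had more FPKM in AD1KO, with ratios from 0.46 to 1.5, and 9 of them were called higher. Their summed level was 6556 FPKM in fl/fl and 11720 FPKM in AD1KO. All 11 macrophage markers had less, with ratios from -2.03 to -0.48, of which 10 were called lower, and a summed level of 3794 and 1870 FPKM. All 11 blood endothelial markers had a ratio above 0, from 0.10 to 0.50, of which 1 was called higher, with a summed level of 172.7 and 210.2 FPKM. No marker of these 3 lists was listed at 0. Of 8 T and B cell markers 6 were called lower, with a summed level of 123 and 63.6 FPKM. The 8 stromal markers had a median ratio of 0.07 and a mean of -0.14, with 1 called higher and 2 lower. The lower were Ly6a (ratio -1.31) and Pi16 (ratio -0.70), and the higher was Dpp4 (ratio 0.50). Of 7 tested smooth and skeletal muscle markers 4 were called higher and 1 lower, with a summed level of 251 and 402.8 FPKM. Among the higher were the smooth muscle genes Cnn1 (ratio 1.57) and Tagln (ratio 1.18). The skeletal muscle genes Ckm (higher, 3 and 5 reads) and Mylpf (lower, 12 and 4 reads) had intervals that held 0.

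Markers of tissue that borders the gonadal pad differed as well. The mesothelial gene Upk3b was at 30.6 and 64.3 FPKM (ratio 1.07), and the 8 mesothelial and reproductive epithelial markers, of which 3 were called higher and 3 lower, summed to 85.3 and 140.0 FPKM. The lower ones were the reproductive epithelial genes Ovgp1 (150 and 7 reads), Wfdc2 (38 and 4 reads) and Pax8 (11 and 0 reads). Of 6 tested brown and beige adipocyte markers 4 had a ratio above 0 and 2 below, with a summed level of 114.8 and 135.4 FPKM. Called lower were Ucp1, the uncoupling protein, at 8.39 and 1.38 FPKM, and Cidea, at 5.88 and 3.38 FPKM. Called higher were Elovl3 (14 and 38 reads) and Dio2 (26 and 46 reads). The part of these markers in the ratios of the 10 genes was not tested.

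Each of the 10 genes lay below the median of the adipocyte markers and above every macrophage marker. Of the 10, 7 lay below every adipocyte marker, the exceptions being Slc27a1, Vldlr and Fabp4. The intervals of Acsl1 and Gpihbp1 overlapped that of the lowest adipocyte marker, Pnpla2 (ratio 0.46, interval 0.44 to 0.49), so these were not told apart from it. Gpihbp1 differed from the median of the endothelial markers by less than its counting interval. When all ratios were centred on the adipocyte median, the median of the 10 genes was -0.37 and the median of all tested genes -0.81. On that scale all 10 genes were below 0, with Slc27a1 at -0.071 and Vldlr at -0.074 closest to it, and Lrp1 at -1.15 farthest. Cd36 (-0.62), Slc27a4 (-0.57) and Lrp1 were then called lower, and 95.1% of the calls over all genes were lower.

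**Figure D3:**
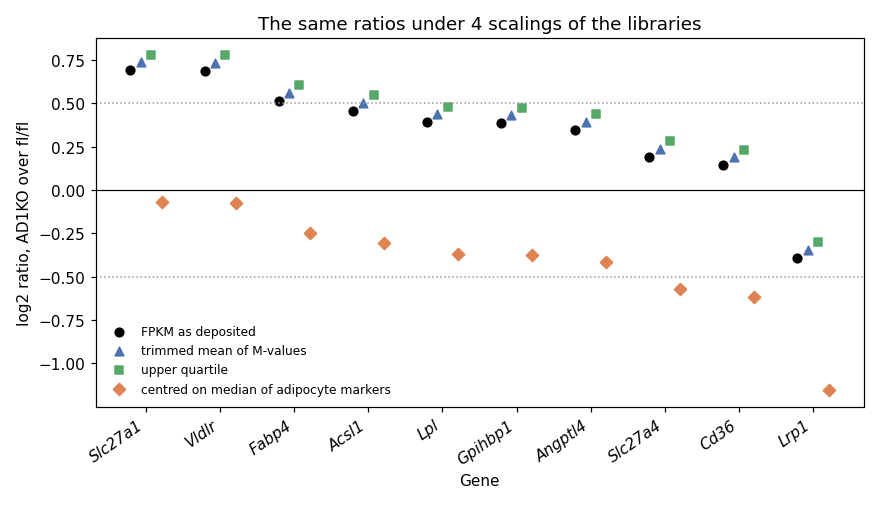
Log2 ratio of each of the 10 genes under 4 scalings of the libraries: FPKM as deposited, trimmed mean of M-values, upper quartile, and centring on the median of the adipocyte markers. The first 3 scalings keep 9 genes above 0, and the centring puts all 10 below 0.

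DNMT1 copies methylation at CpG sites, so the CpG content of the promoters was described from the RefSeq promoter table (build GRCm38.p6), in the 250 bases before each start. Of the 10 genes, 6 had entries, with 10 starts in all. Lpl, Gpihbp1, Fabp4 and Angptl4 had none. The sequences below are those of the most upstream start of Slc27a1 and Vldlr, which differed most, of Cd36, which differed least, and of Lrp1, the one gene with less FPKM in AD1KO. Each is written from the 5′ end on the gene's own strand, with CpG dinucleotides in capitals.
Slc27a1, chr8:71568621-71568870, plus strand: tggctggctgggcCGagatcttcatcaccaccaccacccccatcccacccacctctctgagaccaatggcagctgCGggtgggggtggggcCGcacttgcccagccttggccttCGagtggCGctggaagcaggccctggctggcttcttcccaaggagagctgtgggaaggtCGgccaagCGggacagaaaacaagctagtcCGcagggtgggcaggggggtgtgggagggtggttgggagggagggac
Vldlr, chr19:27216234-27216483, plus strand: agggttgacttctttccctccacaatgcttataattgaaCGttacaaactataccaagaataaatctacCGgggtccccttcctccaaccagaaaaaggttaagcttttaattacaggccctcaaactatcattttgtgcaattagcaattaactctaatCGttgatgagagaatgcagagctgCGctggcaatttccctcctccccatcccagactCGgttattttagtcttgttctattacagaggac
Cd36, chr5:17835897-17836146, minus strand: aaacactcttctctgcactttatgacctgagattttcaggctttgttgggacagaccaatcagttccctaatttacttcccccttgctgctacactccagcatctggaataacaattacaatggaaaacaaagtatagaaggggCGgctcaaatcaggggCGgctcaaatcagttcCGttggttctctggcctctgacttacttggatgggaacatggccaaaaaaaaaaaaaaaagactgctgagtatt
Lrp1, chr10:127621149-127621398, minus strand: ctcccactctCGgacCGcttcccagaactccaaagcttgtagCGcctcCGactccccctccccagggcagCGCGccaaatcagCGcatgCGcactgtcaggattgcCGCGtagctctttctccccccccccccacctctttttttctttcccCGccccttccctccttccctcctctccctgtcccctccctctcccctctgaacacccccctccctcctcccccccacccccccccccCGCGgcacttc

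These windows held 8 CpG (CG, the same on both strands) in Slc27a1, 5 in Vldlr, 3 in Cd36 and 13 in Lrp1, against a median of 6 over the 32851 windows of the table. The shares of all windows with at least as many were 43.0%, 55.6%, 71.0% and 31.5%. The other starts of Slc27a1 had 12 and 10 CpG, and a second start of Vldlr had 18. The starts of Acsl1 had 20 and 2, the most and the fewest among the 10 windows. Of the 10 windows, 7 lay above the median. CpG content thus varied as much within Acsl1 as over the set. The count describes the reference sequence and says nothing of methylation in these mice.

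Beyond the set, 93 other genes of lipoprotein and fatty acid handling were examined in 9 lists, of which 91 had a row and were tested. Of these, 25 (27.5%) were called higher in AD1KO and 15 (16.5%) lower, against 14.3% and 19.1% of all tested genes. Their median ratio was 0.14, against -0.04. Fabp9 and Pmp2, both among the lower, had 2 and 4 reads in fl/fl and 0 and 1 in AD1KO, and without them the median was 0.15.

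The apolipoproteins, the ligands and cofactors of the lipase and the receptors, had the highest median of the 9 lists, at 1.04. Of 9 tested, 7 were called higher, and Apoe was called lower. Apoe, the ligand shared by VLDLR and LRP1, was at 3111 FPKM in fl/fl and 2110 FPKM in AD1KO (ratio -0.56, interval -0.58 to -0.54). Apoc2, the activator of LPL, was at 12.12 and 12.02 FPKM (ratio -0.01, interval -0.34 to 0.31), so no difference was detectable at this depth. Apoc1, which can inhibit lipoprotein uptake, was at 88.3 and 188.5 FPKM (ratio 1.09, interval 0.94 to 1.25). The other 6 higher apolipoproteins lay between 0.31 and 30.2 FPKM in both libraries. The highest of them, Apoa1, the main protein of high-density lipoprotein, was at 16.7 and 30.2 FPKM. Apoc3, an inhibitor of lipoprotein clearance, was at 9.11 and 18.8 FPKM, and Apoa5, which promotes lipolysis by LPL, was at 0.54 and 1.73 FPKM from 21 and 67 reads. The summed level of the list, which Apoe dominated, was 3248 FPKM in fl/fl and 2386 FPKM in AD1KO, so the sum and the median differed in sign.

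Genes that mature, cleave or inhibit the lipase, listed together with other lipases, had 2 of 13 (15.4%) called higher and 3 (23.1%) lower. These shares were near those over all tested genes. The 3 lower were the other lipases Lipa, Lipc (22 and 14 reads) and Lipg (16 and 11 reads). The intervals of Lipc and Lipg held 0. Lmf1, the chaperone of the endoplasmic reticulum that LPL needs to fold, was at 15.1 and 19.1 FPKM (ratio 0.34, interval 0.16 to 0.52), near the ratio of Lpl. Angptl8, an insulin-induced partner of the ANGPTL inhibitors, was at 23.6 and 35.6 FPKM (ratio 0.60, interval 0.40 to 0.81). Lipa, the lysosomal acid lipase, was at 177.8 and 91.7 FPKM (ratio -0.95, interval -1.01 to -0.90).

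Of 15 other lipoprotein receptors and partners, 3 were called higher and 3 lower, 20% each way and near the shares over all tested genes. Lrpap1, the chaperone that guards LRP1 and VLDLR from early ligand binding, was at 71.9 and 107.0 FPKM (ratio 0.57, interval 0.51 to 0.64), while Lrp1 itself was below 0. Scarb1, the receptor of high-density lipoprotein, was at 47.2 and 48.2 FPKM (ratio 0.03, interval -0.06 to 0.12). Msr1, a scavenger receptor of macrophages, was at 17.2 and 6.97 FPKM (ratio -1.30, interval -1.48 to -1.13).

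Of 8 other fatty acid transport and caveolar genes, 3 (37.5%) were called higher and 1 (12.5%) lower, against 14.3% and 19.1% of all tested genes. Cav1, the coat protein of caveolae, was at 777.1 FPKM in fl/fl and 1219 FPKM in AD1KO (ratio 0.65, interval 0.63 to 0.67), and its partner Cav2 had a ratio of 0.59 (interval 0.55 to 0.64). Cd36, which lies in caveolae, was at 1.08 times the level of Cav1 in fl/fl and 0.76 times in AD1KO. The other calls of this list fell on Slc27a2 (0.54 and 0.86 FPKM) and Slc27a6 (0.50 and 0.16 FPKM), each from at most 33 reads in a library. Slc27a2 had an interval that held 0 (-0.16 to 1.54).

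Of 9 other fatty acid binding proteins, 4 (44.4%) were called higher and 3 (33.3%) lower. Of 11 other acyl-CoA synthetases, 3 (27.3%) were called higher and 3 lower. Over all tested genes the shares were 14.3% and 19.1%. The lower binding proteins, Fabp7 (40 and 26 reads), Fabp9 and Pmp2, each had an interval that held 0. The whole interval lay past the threshold upward for 2 binding proteins and downward for 0. Fabp1 was at 22.19 and 39.15 FPKM (ratio 0.82, interval 0.53 to 1.13). The median of the binding proteins was 0.27 and their mean -0.37, since the 2 reads of Fabp9 gave a ratio of -4.46. Fabp5, the other binding protein abundant in fat, was at 311.4 and 297.8 FPKM (ratio -0.06, interval -0.12 to -0.0033). The level of Fabp4 was 35.8 times that of Fabp5 in fl/fl and 53.5 times in AD1KO. Dbi, which binds acyl-CoA, was at 3131 and 4652 FPKM (ratio 0.57, interval 0.55 to 0.60). Fabp3 was called higher at 1.13 and 2.24 FPKM, but an unnamed transcript annotated as the heart fatty acid binding protein that Fabp3 encodes was at 9.18 and 9.62 FPKM. Summed over both entries the ratio was 0.21 (interval -0.19 to 0.61), so the single value of Fabp3 is uncertain. Acsl4 (ratio -0.25, interval -0.40 to -0.09) and Acsl5 (ratio -0.48, interval -0.58 to -0.38) went the other way from Acsl1. The level of Acsl1 was 9.02 times that of Acsl5 in fl/fl and 17.2 times in AD1KO.

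Of 13 transcriptional regulators and partners, 8 had a ratio above 0 and 5 below, with a median of 0.14. Pparg was at 84.9 and 109.9 FPKM (ratio 0.37, interval 0.30 to 0.45), and its partner Rxra was at 25.8 and 31.7 FPKM (ratio 0.30, interval 0.22 to 0.38). The 10 genes had a median of 0.39 and ranged from -0.39 to 0.69, and a link of Pparg to their ratios was not tested. The related receptor Rxrb was below 0, at 15.2 and 12.2 FPKM (ratio -0.32), as was the coactivator Ppargc1b, at 1.23 and 0.90 FPKM (ratio -0.45). Of the 13 genes, 2 (15.4%) were called higher and 0 lower, against 14.3% and 19.1% of all tested genes. The 2 higher were Rxrg, at 8.45 and 13.7 FPKM, and Ppara, at 0.56 and 1.00 FPKM.

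**Figure D4:**
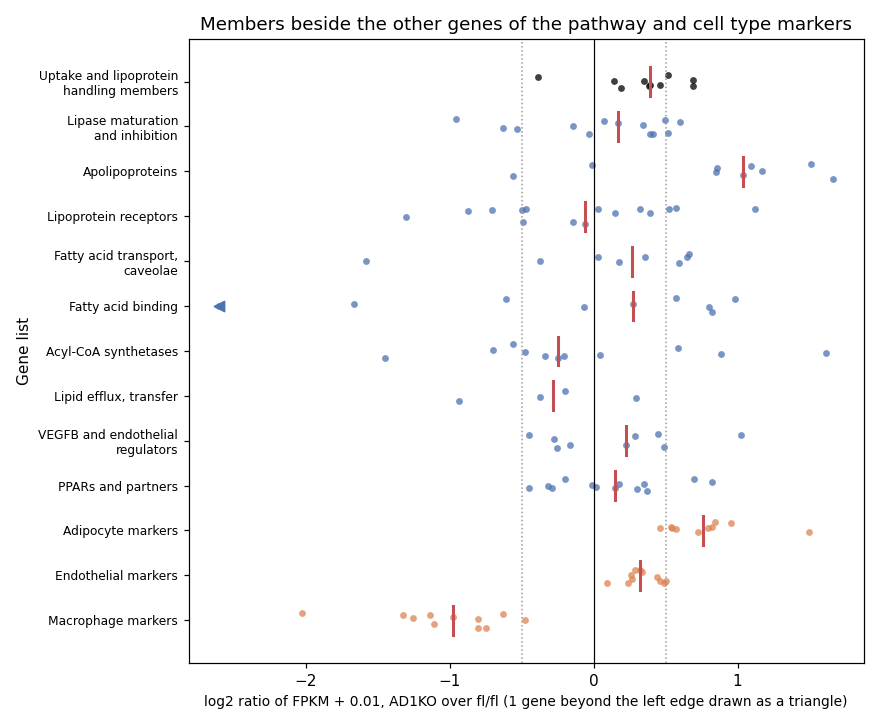
Log2 ratio of FPKM plus 0.01, AD1KO over fl/fl, for each tested gene (points) of the 10-gene set (black), of 9 further pathway lists (blue) and of 3 marker lists (orange), with the median of each list as a red bar. The median of the set is 0.39, that of the apolipoproteins 1.04 and that of the macrophage markers -0.98.

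The deposited Gene Ontology terms joined some of the genes. The set was chosen for fatty acid uptake and lipoprotein handling, so shared terms of that kind follow from the choice. Lpl, Lrp1 and Vldlr shared apolipoprotein binding, a term given to 16 genes of the table. Angptl4, Gpihbp1 and Lpl shared triglyceride homeostasis, given to 21 genes, and these were the genes with ratios from 0.35 to 0.39.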

How the data were processed

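RNA-Seq libraries of gWAT from fl/fl and AD1KO mice were analysed, 1 pooled library per group. Clean reads had been aligned to mm9 according to the paper's methods, while the sample records of the series name both mm9 and mm10. The aligner and the counting program are not given in the sources used here, nor is strandedness. The authors deposited 1 expression value per gene and library, with 0 written as 0.01. The deposited header names no unit, and the values were read as FPKM because low values times transcript length fell on steps of single reads. Its columns of fold changes, P-values and FDR are the authors' own comparison and were not used. Columns were matched to groups through the library names in the labels.

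Values of 0.01 were set to 0, and the lowest genes, under 0.1 FPKM in both libraries, were left out. With 1 library per group no test was possible, and no p-value was computed. Depth was found as the value for which FPKM times transcript length, less a correction of 118 bases in fl/fl and 117 in AD1KO, gave whole reads at low values. Of 949 and 980 values under 8 reads, 86.5% and 85.9% came within 0.2 of a whole number. Estimated reads sum to 17863288 in fl/fl and 17582280 in AD1KO, and 726 and 730 genes are listed at 0. Intervals are exact Clopper-Pearson intervals. Reads carry no molecular identifiers, so intervals cover counting error only. The steps were tested on simulated data.

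The 10 genes and the gene lists were chosen with earlier results of these data known. Named genes are the 10, a fixed set of regulators and partners, and pathway genes past the threshold with at least 1 FPKM in 1 library, at most 25 by size. Not every gene of the fixed set is reported here. Fabp9, Pmp2, Acsl5, Dbi, Lipc, Lipg, Slc27a2, Slc27a6, Rxrb, Ppargc1b, Pltp, Meox2, Rbpj and Nrp1 were named after their values were seen, as were genes of the marker lists. Scalings, pseudocounts, filters and thresholds were varied. Positions are from the GENCODE annotation for mm9. The software was pandas 2.3.3, SciPy 1.17.1, NumPy 2.4.6 and Matplotlib 3.10.9, run in Python 3.11.15.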

Additional observations from a re-analysis of the deposited data

How the results depend on the processing

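No paired analysis was possible because each genotype has a single pool of RNA, and for the same reason no replicate could be left out. Outside the centring on adipocyte markers, each of the 10 genes kept its sign under every alternative that gives it a value, and the count called higher was 3 or 4 except at a threshold of 1, where it was 0. Upper quartile scaling moved the median of the 10 genes from 0.39 to 0.48. Centring on the adipocyte markers gave a median of -0.37, with 0 higher and 3 lower, and turned Fabp4 to -0.25, Slc27a1 to -0.071 and Vldlr to -0.074. It also gave 3 pathway genes higher and 51 lower, and 611 genes higher and 11842 lower over all genes, as every ratio was shifted by the same amount.

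For the pathway lists, against 25 higher and 15 lower, a threshold of 1 gave 8 and 5, a pseudocount of 1 FPKM 6 lower, and a minimum of 1 FPKM 8 lower. Over all genes, against 2265 higher and 3029 lower, a threshold of 1 gave 910 and 1417, a pseudocount of 1 FPKM 965 and 1661, and a minimum of 1 FPKM 1281 higher. A minimum of 10 FPKM and the whole counting interval past the threshold were chosen after seeing the data. The first gave 13 and 4 pathway genes and 526 and 890 genes in all, the second 15 and 4 pathway genes and 664 and 1310 in all. Stricter calls and filters leave fewer genes by construction. Depth limits the genes with few reads, such as Apoa5, while the spread between animals, which 1 library per group cannot show, limits the abundant ones.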

Other observations

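Genes that export or transfer lipid showed no common direction. Abca1, which loads cholesterol on apolipoprotein A-I, was at 24.0 FPKM in fl/fl and 29.4 FPKM in AD1KO (log2 ratio 0.29, interval 0.22 to 0.37). Abcg1, a cholesterol exporter, was at 35.4 and 18.5 FPKM (ratio -0.93, interval -1.02 to -0.85). Pltp, the phospholipid transfer protein, was at 735.6 and 568.7 FPKM (ratio -0.37, interval -0.40 to -0.34). The intervals of Abca1 and Abcg1 did not overlap.

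The 9 genes of endothelial fatty acid transport went both ways, with 5 ratios above 0, 4 below and a median of 0.22. In this list 1 (11.1%) was called higher and 0 lower, against 14.3% and 19.1% of all tested genes. Below 0 with the whole interval were Rbpj (ratio -0.45, interval -0.56 to -0.34) and Nrp1 (ratio -0.28, interval -0.34 to -0.21). Vegfb, a growth factor of the VEGF family linked to fatty acid uptake by endothelium, was at 77.3 and 105.5 FPKM (ratio 0.45, interval 0.35 to 0.55). Tcf15, a transcription factor of capillary endothelium, was at 4.62 and 9.39 FPKM (ratio 1.02, interval 0.60 to 1.47, from 68 and 137 reads), and its partner Meox2 was at 4.78 and 6.70 FPKM (ratio 0.49, interval 0.21 to 0.76). The endothelial markers had ratios of at most 0.50, below the interval of Tcf15. That interval still overlapped those of the markers Erg (0.13 to 0.79), Kdr (0.29 to 0.69) and Tie1 (0.33 to 0.67). The acetyl-CoA synthetase Acss2, of the cytosol and nucleus, was at 38.2 and 70.5 FPKM (ratio 0.88, interval 0.80 to 0.97), and the mitochondrial Acss1 at 4.83 and 2.97 FPKM (ratio -0.70, interval -0.97 to -0.43).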
